A study of Homo sapiens with 18 samples.

Results

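BCL2, MCL1, BCL2L1, BCL2L2, BCL2A1, BAX and BAK1 are 7 of the multidomain genes of the BCL2 family, which carry several of the BCL2 homology domains and act at the outer membrane of the mitochondrion. They were taken by gene symbol and make up 7 of the 60609 gene identifiers in the count files. The first 5 encode anti-apoptotic proteins and the other two, BAX and BAK1, encode the proteins that open the membrane. Polyadenylated RNA was sequenced from OCI-AML1, an established human acute myeloid leukaemia cell line that the labels give as wild type. The cells had been treated for 8 h or 24 h with DMSO, the solvent used as control, with AML874 or with SEL120-34A, in 3 libraries for each of the 6 groups and 18 libraries in all. SEL120-34A is an inhibitor of the Mediator kinases CDK8 and CDK19, and AML874 is known here by its code name alone. The labels give no dose for either compound and name no treatment with venetoclax, so each value below is an RNA level without that drug. All groups share the one cell line. The labels do not say whether the libraries of a group came from separate cultures, so a p-value reflects only how far these libraries scatter, and that scatter may be technical.

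As background, the anti-apoptotic proteins hold the cell alive by binding BAX and BAK1 and by binding the BH3-only proteins, the stress sensors of the family. When BH3-only proteins outnumber the free anti-apoptotic proteins, BAX and BAK1 assemble into pores, cytochrome c leaves the mitochondrion and the caspases are switched on. Venetoclax is a BH3 mimetic that occupies the groove of BCL2, and MCL1, BCL-XL (the product of BCL2L1) and BFL1 (the product of BCL2A1) are known to stand in for BCL2 in leukaemia cells that resist it. The question addressed here was whether either compound went with a different balance of RNA between the target of venetoclax and its substitutes.

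Upstream sequences are shown for the 3 members whose RefSeq window (GRCh38.p14, 250 bases before the start) holds at least 150 bases outside annotated exons. They are BCL2L1, whose RNA moved in opposite directions with the compounds at 8 h, and BAX and BAK1, whose RNA fell together between 8 h and 24 h. Each is the stretch upstream of the start that lies outside annotated exons, on the strand of the gene. The printed stretches stop short of the start: the last base lies 27 (BCL2L1), 61 (BAX) and 18 (BAK1) bases before it. Capitals mark matches on either strand to the letters of the GC box (GGGCGG), of the CCAAT box (CCAAT), of the TATA box (TATAAA) and of the E-box (CACGTG). The letters TTCNNNGAA of a STAT site and GCGTGGGCG of an EGR site were searched too and had no match here. No motif of this list contains another.
BCL2L1, chr20:31723990-31724213, minus strand: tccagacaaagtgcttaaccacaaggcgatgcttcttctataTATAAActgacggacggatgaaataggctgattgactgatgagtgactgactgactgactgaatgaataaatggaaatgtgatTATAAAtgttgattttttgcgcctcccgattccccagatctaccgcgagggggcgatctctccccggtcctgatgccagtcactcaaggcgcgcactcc
BAX, chr19:48954625-48954814, plus strand: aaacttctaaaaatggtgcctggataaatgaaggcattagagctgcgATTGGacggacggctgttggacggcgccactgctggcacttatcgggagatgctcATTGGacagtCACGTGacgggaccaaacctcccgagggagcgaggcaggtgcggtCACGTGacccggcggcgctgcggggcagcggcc
BAK1, chr6:33580294-33580526, minus strand: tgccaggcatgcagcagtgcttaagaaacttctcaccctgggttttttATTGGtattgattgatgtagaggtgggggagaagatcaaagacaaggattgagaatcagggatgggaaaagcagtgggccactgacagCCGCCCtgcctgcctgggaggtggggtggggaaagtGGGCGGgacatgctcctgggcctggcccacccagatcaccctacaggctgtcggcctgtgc
The BCL2L1 window holds 2 matches to TATAAA, and 8.48% of the 35116 promoters hold at least 1 match in the same window. The BAX window holds 2 matches to CACGTG and 2 to CCAAT, and at least 1 match is held by 4.13% and 25.8% of promoters. The BAK1 window holds 2 matches to GGGCGG and 1 to CCAAT, and at least 1 match is held by 40.4% and 30.9% of promoters. These are matches of letters and were not tested as binding sites. For MCL1 and BCL2L2 no sequence is shown, and the windows of BCL2 and BCL2A1 hold fewer than 150 such bases and were not used.

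Gene counts per library ranged from 98975944 to 142496541. Gene counts are given as CPM, counts scaled to the library total after its adjustment by TMM. The labelled cell type was checked by markers: SPI1, a myeloid transcription factor, was at 174 to 255 TPM (the RSEM level scaled for transcript length and depth), and 7 or 8 of 8 myeloid markers reached a mean of 1 TPM in each group. Of 8 monocyte markers 3 reached 1 TPM (LYZ, CSF1R and FCGR1A), with CD14 at most 0.14 TPM, and no erythroid or epithelial marker reached 1 TPM as a group mean. Of the lymphoid list NCAM1 was at 21.5 to 33.7 TPM, while the T cell gene CD3D was at most 0.08 TPM. Summed marker levels moved with compound and time. The 8 monocyte markers summed to 368 to 373 TPM with DMSO, 359 to 367 with AML874 and 352 to 367 with SEL120-34A at 8 h, and to 286 to 293, 175.5 to 191 and 228 to 237.5 TPM at 24 h. The 8 myeloid markers summed to 583 to 586, 525 to 532 and 540 to 559 TPM at 8 h and to 550 to 559, 426 to 431 and 477 to 482 TPM at 24 h, in the same order. The 6 progenitor markers, of which 3 or 4 reached 1 TPM, summed to 41.9 to 45.6, 43.6 to 45.9 and 56.0 to 57.5 TPM at 8 h and to 61.6 to 69.5, 67.9 to 74.5 and 71.3 to 79.9 TPM at 24 h. Among them KIT and PROM1 were at most 0.29 and 0.11 TPM. The sums hide genes that moved in opposite directions. At 24 h FLT3 had means of 26.5 TPM with DMSO, 36.9 with AML874 and 36.2 with SEL120-34A. GATA2 was at 35.3, 29.2 and 32.9 TPM and CD34 at 0.333, 3.03 and 3.72 TPM in that order. At 8 h GATA2 was at 24.6 TPM with DMSO, 27.7 with AML874 and 40.3 with SEL120-34A. FLT3 was then at 17.2, 13.9 and 13.0 TPM. Of the myeloid list at 24 h, MPO was at 15.8, 2.05 and 5.24 TPM and PTPRC at 90.3, 97.3 and 101 TPM. The monocyte sum was mostly LYZ, whose mean in DMSO was 324 TPM at 8 h and 224 at 24 h. FCGR1A and CSF1R rose there, from 36.7 to 52.0 and from 8.06 to 11.4 TPM. Targets of the hypoxia-inducible factors (HIF) differed between libraries of a group and between groups. Their mean log2 CPM over 21 genes at 8 h was 4.66 to 5.43 with DMSO and 4.37 to 5.13 with SEL120-34A. With AML874 it was 4.49 to 4.59, below every DMSO library at 8 h. At 24 h this mean was 5.49 to 5.77 with DMSO, 5.07 to 5.43 with AML874 and 5.11 to 5.64 with SEL120-34A. Of the 21 targets 0 were called higher in each comparison with DMSO. With AML874 7 were lower at 8 h and 6 at 24 h, against 19.9% and 23.7% of all genes. With SEL120-34A 5 and 4 were lower, against 22.6% and 18.6%. Their median log2 fold change was -0.42 and -0.38 with AML874, and -0.21 and -0.27 with SEL120-34A. An alternative fit took the HIF deviation of each library from its group mean as a covariate. With it, 62 of the 63 member results (7 genes in 9 comparisons) kept their direction and their side of the threshold. This covariate carries no difference between groups, so it cannot adjust for HIF differences between compounds and DMSO. The part of those differences in the results was not tested. The part of the monocyte, myeloid and progenitor markers in the results was not tested. In bulk RNA, fewer cells that express a gene and less of its RNA per cell cannot be told apart.

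The 7 genes covered a wide range of RNA levels. On the TPM scale, which divides by transcript length and so allows genes to be compared, the mean over the 18 libraries was 198 for BAX, 146.5 for MCL1, 74.6 for BCL2, 23.8 for BCL2L1, 21.7 for BAK1, 0.526 for BCL2L2 and 0.294 for BCL2A1. BAX stood above MCL1, and MCL1 above BCL2, in every library of every group. BCL2L1 and BAK1 overlapped between libraries at 24 h with AML874 and with SEL120-34A, so their order there is not separated from the spread. BCL2L2 and BCL2A1, the genes of BCL-w and BFL1, overlapped with DMSO at 8 h. The highest TPM of either in any library was 0.8 and the lowest TPM of BAK1 was 17.7, so the RNA of these leukaemia cells held mainly 3 of the 5 anti-apoptotic transcripts.

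**Figure D1:**
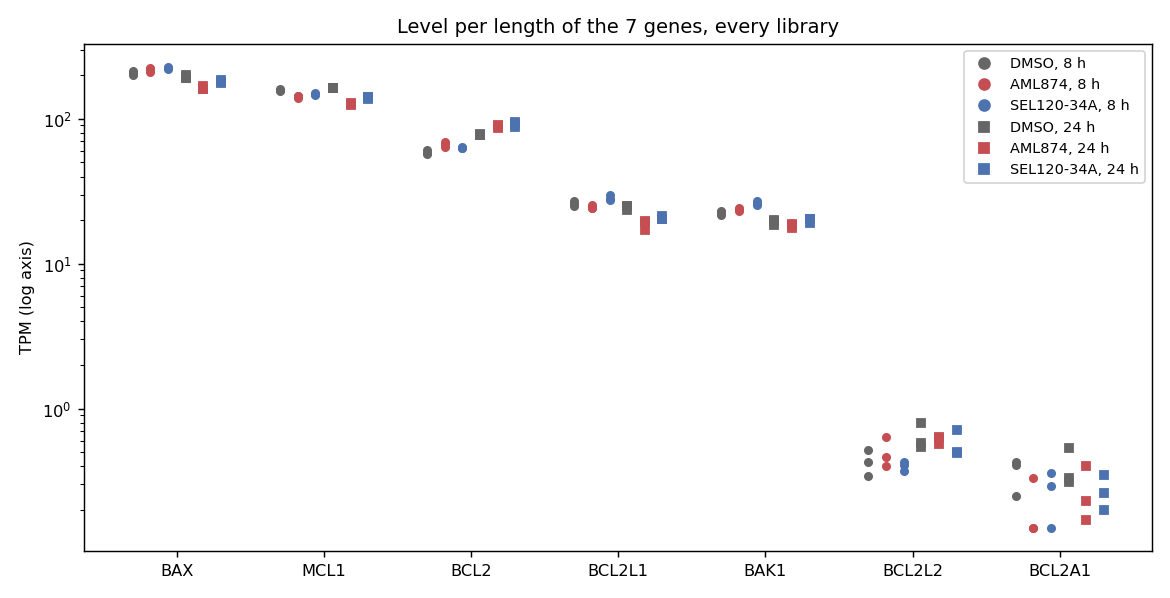
TPM of the 7 genes (log axis) in all 18 libraries, 1 point per library, with colours for the compounds, circles for 8 h and squares for 24 h. BAX, MCL1 and BCL2 lie highest, while BCL2L2 and BCL2A1 lie at or below 0.8 TPM in every library.

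BCL2, the target of venetoclax (ENSG00000171791.13, GRCh38 chr18:63123346-63320128, minus strand), rose with AML874 at both times and with SEL120-34A at 24 h. At 8 h the DMSO libraries were at 322, 315 and 329.7 CPM, the AML874 libraries at 361, 349 and 339.9 CPM, and the SEL120-34A libraries at 326, 331 and 325 CPM. In CPM all AML874 libraries lay above all DMSO libraries at 8 h, while SEL120-34A and DMSO overlapped. On the TPM scale SEL120-34A at 8 h was at 62.5 to 64.4 and DMSO at 57.4 to 61.1, which do not overlap. At 24 h the DMSO libraries were at 426, 407 and 399.7 CPM, the AML874 libraries at 491, 489 and 465 CPM, and the SEL120-34A libraries at 467, 504 and 489 CPM. All 6 treated libraries lay above the 3 DMSO libraries at 24 h. The log2 fold change with AML874 was 0.12 (SE 0.029, edgeR adjusted p = 0.00112) at 8 h and 0.23 (SE 0.029, edgeR adjusted p = 4.59e-08) at 24 h. With SEL120-34A it was 0.24 at 24 h (SE 0.029, edgeR adjusted p = 2.34e-08), a rise of 18.4%. At 8 h the value for SEL120-34A was 0.022 with a 95% interval of -0.037 to 0.081, and it did not pass the test (edgeR adjusted p = 0.587). With library totals alone as scaling that value was 0.087 and passed (adjusted p = 0.0115).

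MCL1 (ENSG00000143384.13, chr1:150574551-150579738, minus strand), whose short-lived protein binds BAK1 and BIM, fell in all 4 comparisons with DMSO. After 8 h the DMSO libraries were at 457, 461 and 444 CPM, the AML874 libraries at 408, 405 and 402 CPM, and the SEL120-34A libraries at 412, 421 and 420.5 CPM. At 24 h the DMSO libraries were at 453.5, 444 and 439.6 CPM, the AML874 libraries at 362.5, 373 and 367 CPM, and the SEL120-34A libraries at 403.5, 387 and 396 CPM. At each time every treated library lay below every DMSO library. The log2 fold change with AML874 was -0.17 (SE 0.023, edgeR adjusted p = 3.83e-07) at 8 h and -0.28 (SE 0.023, edgeR adjusted p = 3.28e-12) at 24 h, the latter a decrease of 17.5% in CPM (percent change -17.5). With SEL120-34A it was -0.12 (SE 0.023, edgeR adjusted p = 4.64e-05) and -0.17 (SE 0.023, edgeR adjusted p = 2.04e-07). These 4 calls held under every alternative that was run.

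BCL2L1 (ENSG00000171552.13, chr20:31664452-31723989, minus strand) encodes BCL-XL. At 8 h the DMSO libraries were at 40.1, 41.5 and 38.5 CPM, the AML874 libraries at 36.2, 36.1 and 38.5 CPM, and the SEL120-34A libraries at 42.0, 42.2 and 45.5 CPM. It fell with AML874 (log2 fold change -0.12, SE 0.042, edgeR adjusted p = 0.0246) and rose with SEL120-34A (0.11, SE 0.042, edgeR adjusted p = 0.0327). On the TPM scale AML874 at 8 h was at 24.2 to 25.3 and DMSO at 25.15 to 27.0, which overlap. At 24 h the DMSO libraries were at 36.3, 37.0 and 34.1 CPM, the AML874 libraries at 27.4, 29.4 and 29.5 CPM, and the SEL120-34A libraries at 31.3, 29.8 and 33.2 CPM. By then it was lower with both compounds, with every treated library below every DMSO library. The log2 fold change at 24 h was -0.32 with AML874 (SE 0.043, edgeR adjusted p = 1.89e-07) and -0.18 with SEL120-34A (SE 0.042, edgeR adjusted p = 0.000736). Both 24 h calls held under every alternative run, and the 8 h calls did not. The rise with SEL120-34A at 8 h was 0.097 without DMSO replicate 1 (adjusted p = 0.104), 0.067 without DMSO replicate 3 (adjusted p = 0.241) and 0.060 without SEL120-34A replicate 3 (adjusted p = 0.297), and the 8 h fall with AML874 was -0.10 without DMSO replicate 2 (adjusted p = 0.0796), -0.12 without AML874 replicate 2 (adjusted p = 0.0509) and -0.072 with library totals alone (adjusted p = 0.169). BCL2L1 shares 1424 of its 3314 exon bases with the antisense gene ABALON, which had a mean of 6.1 reverse-strand counts.

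**Figure D2:**
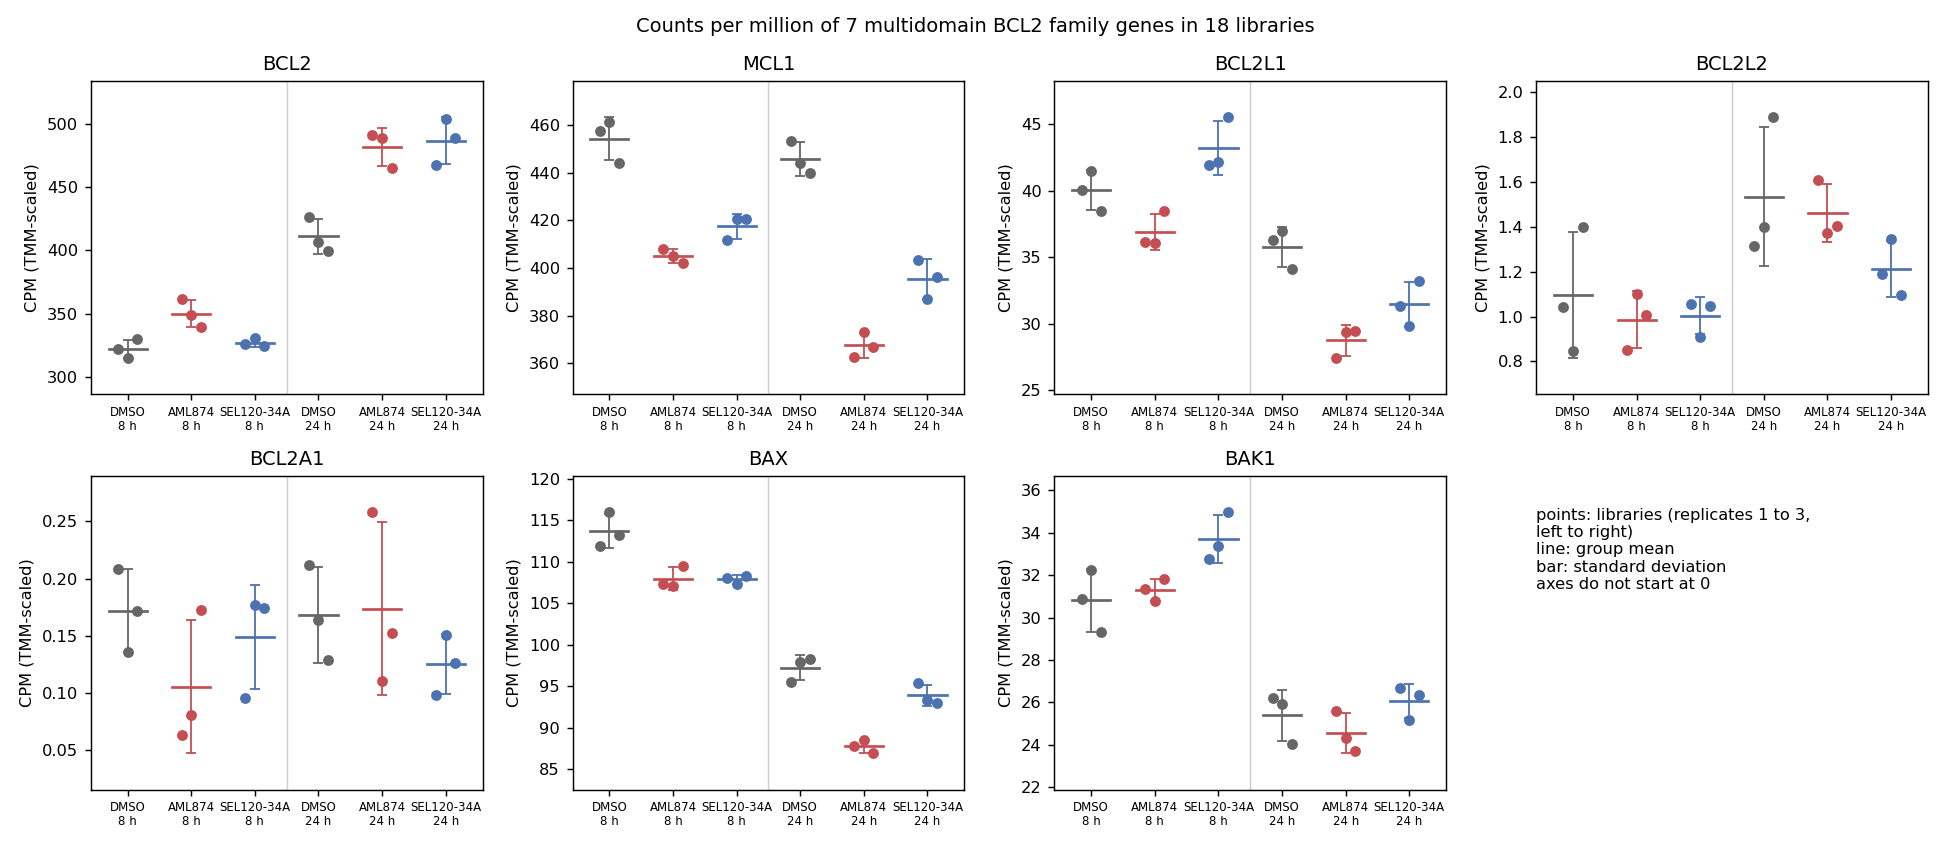
CPM after TMM scaling of each of the 7 genes, 1 panel per gene with its own axis not starting at 0; points are libraries, horizontal lines group means and bars the SD over 3 libraries. BCL2 with either compound at 24 h (465 to 504 CPM) lies above DMSO at 24 h (399.7 to 426 CPM), and MCL1 (362.5 to 403.5 CPM) lies below its DMSO libraries at 24 h (439.6 to 453.5 CPM).

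BCL2L2 (ENSG00000129473.9, chr14:23298790-23311759, plus strand), the gene of BCL-w, had 100 to 249 counts per library, 0.845 to 1.89 CPM. It was called in none of the 4 comparisons with DMSO. The closest was SEL120-34A at 24 h, with libraries at 1.19, 1.34 and 1.10 CPM against 1.32, 1.40 and 1.89 CPM with DMSO, which overlap (log2 fold change -0.35, 95% interval -0.66 to -0.037, edgeR adjusted p = 0.0723). This value was -0.45 without DMSO replicate 1 (adjusted p = 0.033) and -0.35 with the HIF covariate (adjusted p = 0.0492), both past the threshold. Without the library of highest HIF mean in each group it was -0.52 and passed too (edgeR adjusted p = 0.0104). BCL2L2 shares 813 of its 4189 exon bases with the readthrough gene BCL2L2-PABPN1 on the same strand and 206 with PPP1R3E on the other strand, so its counts are uncertain. BCL2A1 (ENSG00000140379.8, chr15:79960889-79971446, minus strand), the gene of BFL1, had 9 to 34 counts per library, above the 3 counts used here as the floor. At 8 h its CPM was 0.172 ± 0.0362 (SD, n = 3) with DMSO, 0.106 ± 0.0583 with AML874 and 0.149 ± 0.0458 with SEL120-34A. The 24 h values were 0.168 ± 0.0418, 0.174 ± 0.0757 and 0.125 ± 0.0261 in the same order, and the groups overlapped. For AML874 at 8 h the log2 fold change did not pass the test, at -0.73 with a wide 95% interval of -1.57 to 0.12 (edgeR adjusted p = 0.174). Without AML874 replicate 3 that value was -1.24 and passed the test (adjusted p = 0.0375).

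BAX (ENSG00000087088.20, chr19:48954815-48961798, plus strand), which moves from the cytosol to the membrane to form pores, fell in CPM with both compounds at 8 h and with AML874 at 24 h. The DMSO libraries at 8 h were at 111.8, 115.9 and 113.3 CPM, the AML874 libraries at 107.3, 107.0 and 109.5 CPM, and the SEL120-34A libraries at 108.1, 107.2 and 108.3 CPM. The DMSO libraries at 24 h were at 95.5, 97.9 and 98.3 CPM, the AML874 libraries at 87.8, 88.6 and 86.9 CPM, and the SEL120-34A libraries at 95.3, 93.4 and 92.9 CPM. In each of these 4 comparisons all treated libraries lay below all DMSO libraries. The log2 fold change at 8 h was -0.075 with AML874 (SE 0.025, edgeR adjusted p = 0.0151) and -0.076 with SEL120-34A (SE 0.025, edgeR adjusted p = 0.0123). With library totals alone these 8 h values were -0.029 (adjusted p = 0.397) and -0.010 (adjusted p = 0.779), so these calls depend on the scaling. On the TPM scale BAX lay the other way at 8 h, at 201 to 214.5 with DMSO and 221 to 228 with SEL120-34A, which do not overlap. With AML874 it was 209 to 226 TPM, which overlaps DMSO. At 24 h the value was -0.15 with AML874 (SE 0.025, edgeR adjusted p = 6.66e-06), and -0.051 with SEL120-34A, which did not pass (edgeR adjusted p = 0.112) but did with DESeq2 (-0.061, adjusted p = 0.0345).

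BAK1 (ENSG00000030110.13, chr6:33572547-33580293, minus strand), the pore former that sits in the mitochondrial membrane, rose with SEL120-34A at 8 h and was called in no other comparison with DMSO. The 8 h levels were 30.9, 32.2 and 29.3 CPM with DMSO, 31.4, 30.8 and 31.8 CPM with AML874, and 32.8, 33.4 and 35.0 CPM with SEL120-34A. The log2 fold change with SEL120-34A was 0.13 (SE 0.041, edgeR adjusted p = 0.00929), with all its libraries above DMSO. It was 0.078 without DMSO replicate 3 (adjusted p = 0.148), 0.091 without SEL120-34A replicate 3 (adjusted p = 0.106) and 0.099 without the library of highest HIF mean in each group (adjusted p = 0.0534). At 24 h the DMSO libraries were at 26.2, 25.9 and 24.0 CPM, the AML874 libraries at 25.6, 24.3 and 23.7 CPM, and the SEL120-34A libraries at 26.7, 25.2 and 26.3 CPM. These groups overlapped, with 95% intervals of -0.13 to 0.036 for AML874 and -0.045 to 0.12 for SEL120-34A.

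Counted over the members, AML874 at 8 h gave 1 higher (BCL2) and 3 lower (MCL1, BCL2L1 and BAX) of 7, against 39.6% of all 20920 genes tested that were called in either direction (19.7% higher and 19.9% lower). SEL120-34A at 8 h gave 2 higher (BCL2L1 and BAK1) and 2 lower (MCL1 and BAX), against 45.1% of all genes (22.4% higher and 22.6% lower). At 24 h AML874 gave 1 higher and 3 lower, the same members as at 8 h, against 46.8% (23.1% higher and 23.7% lower). SEL120-34A at 24 h gave 1 higher (BCL2) and 2 lower (MCL1 and BCL2L1), against 37.7% (19.1% higher and 18.6% lower). The member counts of 4, 4, 4 and 3 of 7 are close to these background shares. The median absolute log2 fold change of the members was 0.12, 0.12, 0.15 and 0.18 in the same order, and that of all genes tested was 0.18, 0.20, 0.21 and 0.17. The fitted change of no member reached 2-fold in these 4 comparisons; the interval of BCL2A1 with AML874 at 8 h extends beyond it.

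**Figure D3:**
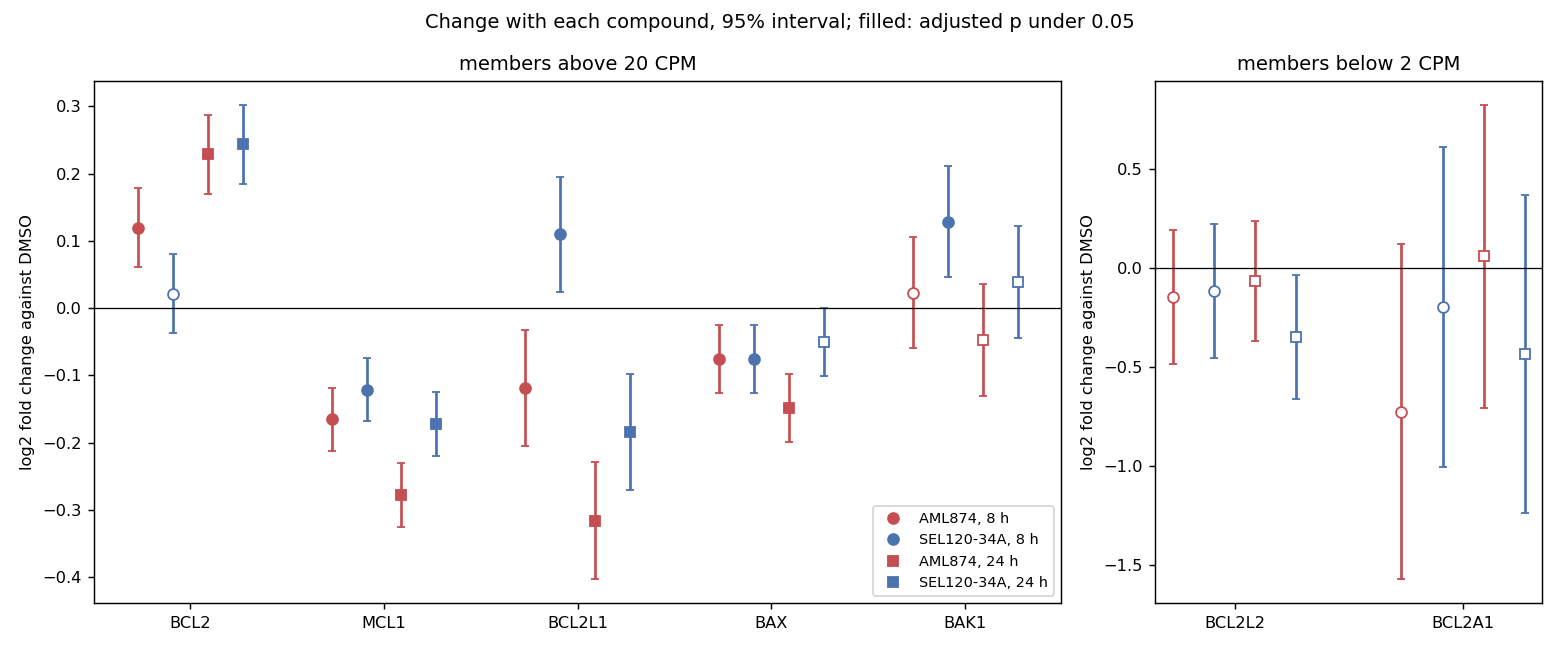
Log2 fold change against DMSO with its 95% interval for each gene and compound, circles at 8 h and squares at 24 h, filled where the edgeR adjusted p is under 0.05; the 2 panels have different scales. BCL2 at 24 h lies above 0 with both compounds (0.23 and 0.24), MCL1 lies below 0 in all 4 comparisons, and the intervals of BCL2A1 span over 1 log2 unit.

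The compounds were compared with each other at matched times, over 7 genes at each of 2 times, with p-values adjusted over all genes tested; the labels give no doses, so these are not comparisons at known equal doses. At 8 h 3 of 7 members differed, 1 higher with AML874 and 2 lower, against 31.2% of all genes (16.0% higher and 15.2% lower). BCL2 was higher with AML874 (log2 difference AML874 minus SEL120-34A 0.098, SE 0.029, edgeR adjusted p = 0.00889), and without AML874 replicate 1 this was 0.070 and did not pass (adjusted p = 0.1). BCL2L1 was lower with AML874 at 8 h by the widest margin of the called members (-0.23, SE 0.042, edgeR adjusted p = 6.70e-05), and no library of AML874 reached the lowest of SEL120-34A. BAK1 was lower with AML874 (-0.11, SE 0.040, edgeR adjusted p = 0.0432), a call that was lost without AML874 replicate 1 (adjusted p = 0.0738) or 2 (adjusted p = 0.128) and without SEL120-34A replicate 2 (adjusted p = 0.0597) or 3 (adjusted p = 0.179). At 24 h 3 of 7 members differed, against 19.6% of all genes, and all 3 were lower with AML874, as 11.6% of all genes were. MCL1 differed by -0.11 (SE 0.023, edgeR adjusted p = 0.000972), BAX by -0.097 (SE 0.025, edgeR adjusted p = 0.00473) and BCL2L1 by -0.13 (SE 0.043, edgeR adjusted p = 0.027). The BCL2L1 difference at 24 h was -0.098 without AML874 replicate 1 (adjusted p = 0.17), -0.14 without SEL120-34A replicate 1 (adjusted p = 0.0577), -0.090 without SEL120-34A replicate 3 (adjusted p = 0.212) and -0.12 in a model of these groups alone (adjusted p = 0.0526). BCL2 did not pass the test between compounds at 24 h, with a log2 difference of -0.015 and a 95% interval of -0.074 to 0.044. MCL1 did not pass at 8 h (-0.044, 95% interval -0.091 to 0.0030, edgeR adjusted p = 0.157), although all AML874 libraries lay below all SEL120-34A libraries. It did pass with library totals alone (-0.064, adjusted p = 0.021) and with a filter of 1 CPM in 3 libraries (-0.051, adjusted p = 0.0448).

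The members also moved with time in DMSO alone, where 5 of 7 differed between 24 h and 8 h, 2 higher and 3 lower, against 42.5% of all genes (19.8% higher and 22.7% lower). BCL2 rose by 0.35 on the log2 scale (SE 0.029, edgeR adjusted p = 9.62e-12), and BCL2L2 by 0.49 (SE 0.16, edgeR adjusted p = 0.0103), with overlapping libraries. Both pore formers fell: BAX changed by -0.23 (SE 0.025, edgeR adjusted p = 3.35e-09) and BAK1 by -0.28 (SE 0.041, edgeR adjusted p = 6.86e-07). BCL2L1 changed by -0.16 (SE 0.042, edgeR adjusted p = 0.00204), while MCL1 was at 454 ± 9.04 CPM at 8 h and 446 ± 7.07 CPM at 24 h (SD, n = 3) and did not pass the test (log2 difference -0.027, 95% interval -0.074 to 0.020, edgeR adjusted p = 0.371). Without the library of highest HIF mean in each group the MCL1 difference was -0.057 and passed (adjusted p = 0.026). On the TPM scale MCL1 lay the other way, at 155 to 161 with DMSO at 8 h and 162 to 163 at 24 h, which do not overlap. The BCL2L2 rise was 0.34 without DMSO replicate 2 at 8 h (adjusted p = 0.115) and 0.33 without DMSO replicate 3 at 24 h (adjusted p = 0.122). For BCL2 the rise with time in DMSO was larger in value than the rise with either compound at 24 h. The lowest BCL2 level of the study, 315 CPM, was in a DMSO library at 8 h and the highest, 504 CPM, in a SEL120-34A library at 24 h.

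The effects of each compound at the 2 times were compared by an interaction term (effect at 24 h minus effect at 8 h). For AML874 3 of 7 members were called, 1 higher and 2 lower, against 23.6% of all genes (11.1% higher and 12.5% lower): MCL1 (-0.11, SE 0.033, edgeR adjusted p = 0.00994), BCL2L1 (-0.20, SE 0.060, edgeR adjusted p = 0.0143) and BCL2 (0.11, SE 0.041, edgeR adjusted p = 0.0496). The BCL2 call is at the edge of the threshold and was made in 10 of 25 settings (the main fit and the alternatives run). It was lost with median-of-ratios size factors (0.10, adjusted p = 0.0691) and with DESeq2 (0.10, adjusted p = 0.0803), among others. MCL1 was called in 24 of these settings and BCL2L1 in 20. Without DMSO replicate 3 at 8 h none of the 3 was called: MCL1 was at -0.083 (adjusted p = 0.0588), BCL2L1 at -0.16 (adjusted p = 0.062) and BCL2 at 0.11 (adjusted p = 0.0734). For SEL120-34A 2 of 7 were called, 1 higher and 1 lower, against 27.3% of all genes (14.2% higher and 13.0% lower): BCL2 (0.22, SE 0.041, edgeR adjusted p = 7.76e-05) and BCL2L1 (-0.29, SE 0.060, edgeR adjusted p = 0.000286). Both held under every alternative run. With SEL120-34A the BCL2L1 change thus went from 0.11 at 8 h to -0.18 at 24 h.

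The balance between members was described by ratios of TPM within a library, with no test. BCL2 over MCL1 was 0.373 ± 0.0179 (SD, n = 3) with DMSO at 8 h, 0.466 ± 0.0124 with AML874 and 0.425 ± 0.00498 with SEL120-34A. The ratio at 24 h was 0.480 ± 0.00681 with DMSO, 0.703 ± 0.0180 with AML874 and 0.656 ± 0.0418 with SEL120-34A. Every treated library lay above every DMSO library of its time, by 1.46-fold with AML874 and 1.37-fold with SEL120-34A in the means at 24 h, where the 2 compounds overlapped. BCL2 over BCL2L1 was 2.17 to 2.43 with DMSO, 2.52 to 2.83 with AML874 and 2.10 to 2.29 with SEL120-34A at 8 h. At 24 h it was 3.20 ± 0.0945, 4.78 ± 0.429 and 4.44 ± 0.248. Treated and DMSO libraries were separate at 24 h and, at 8 h, for AML874 alone. BCL2 over BCL2A1 at 24 h was 149 to 250 with DMSO and 224 to 535 with AML874, which overlap. With SEL120-34A it was 274 to 438, above every DMSO library and 1.68-fold higher in the means; BCL2A1 had 9 to 34 counts per library.

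As a share of the summed TPM of the 5 anti-apoptotic genes, BCL2 made up 29.3% ± 0.244 (SD, n = 3) with DMSO at 24 h, 37.8% ± 0.772 with AML874 and 36.2% ± 1.40 with SEL120-34A. MCL1 made up 61.1% ± 0.399 with DMSO, 53.8% ± 0.285 with AML874 and 55.3% ± 1.39 with SEL120-34A, and so stayed the most abundant of the 5 transcripts. BCL2L1 made up 9.18% ± 0.277, 7.95% ± 0.537 and 8.17% ± 0.213 in the same order. The summed TPM itself was 266 ± 1.29 with DMSO, 236 ± 4.51 with AML874 and 253 ± 1.72 with SEL120-34A. Treated libraries thus had a larger BCL2 share of a smaller sum at 24 h. At 8 h the sum was 244 ± 1.13 with DMSO, 234 ± 4.29 with AML874 and 241 ± 2.52 with SEL120-34A, the last overlapping DMSO.

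**Figure D4:**
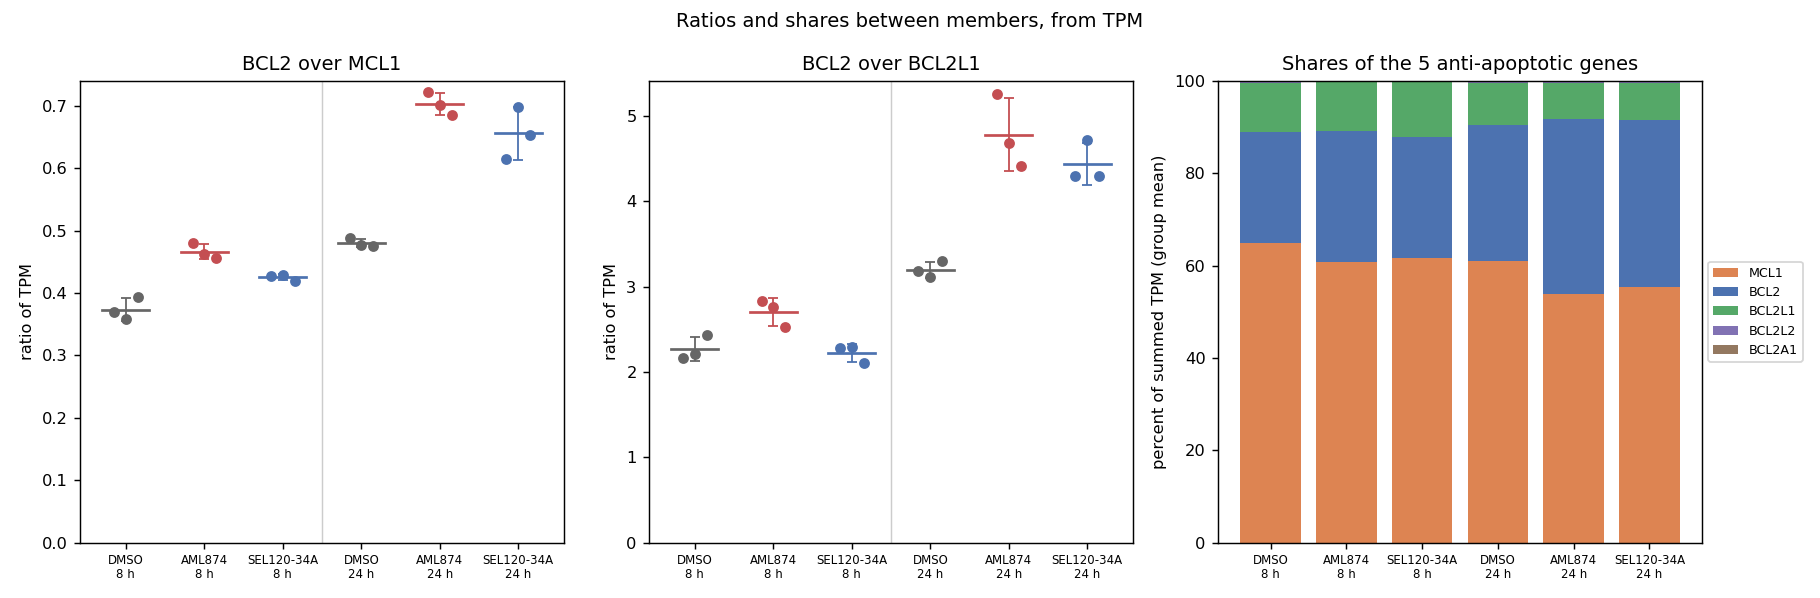
Left and middle, ratio of TPM in each library, with group means as lines and SD as bars; right, mean share of each anti-apoptotic gene in their summed TPM, where BCL2L2 and BCL2A1 are too small to see. BCL2 over MCL1 at 24 h is 0.480 with DMSO, 0.703 with AML874 and 0.656 with SEL120-34A.

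BAX plus BAK1 over the 5 anti-apoptotic genes, the balance of pore formers to their guards at the RNA level, was 0.944 ± 0.0303 (SD, n = 3) with DMSO at 8 h, 1.03 ± 0.0432 with AML874 and 1.04 ± 0.00666 with SEL120-34A. The ratio at 24 h was 0.802 ± 0.0196, 0.770 ± 0.0260 and 0.796 ± 0.0138, with overlapping libraries. The 8 h values of both compounds lay above DMSO although the counts of BAX were lower. The effective length that RSEM assigned to BAX was 661 to 685 bases with DMSO at 8 h, 609 to 651 with AML874 and 606 to 625 with SEL120-34A, and TPM divides by it. With 1 fixed length per gene the log2 change of this ratio at 8 h was 0.019 for AML874 in place of 0.13, and 0.0015 for SEL120-34A in place of 0.14. The higher ratio at 8 h is thus seen with the estimated lengths and not with fixed ones. The 24 h log2 changes of BCL2 over MCL1 were 0.51 and 0.42 with fixed lengths, against 0.55 and 0.45.

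The BH3-only genes encode the activators and sensitizers that the anti-apoptotic proteins hold. Of 8 listed genes 6 were tested (BIK and HRK did not reach the count filter), and with AML874 at 8 h 2 were higher and 3 lower, with a median log2 fold change of -0.11 beside 0.0023 for all genes, of which 19.7% were called higher and 19.9% lower. BMF changed most, by -1.29 (SE 0.082, edgeR adjusted p = 1.40e-08), more than any of the 7 multidomain genes. BID, which caspase 8 cleaves, was at -0.17 (SE 0.026, edgeR adjusted p = 2.23e-06), and BAD, a binder of BCL2 and BCL-XL, at 0.16 (SE 0.043, edgeR adjusted p = 0.00239). PMAIP1, the gene of NOXA, which binds MCL1, was higher with AML874, at 0.35 at 8 h (SE 0.066, edgeR adjusted p = 0.000452) and 0.20 at 24 h (SE 0.065, edgeR adjusted p = 0.019). With SEL120-34A at 8 h 1 was higher and 3 were lower (median 0.016), against 22.4% and 22.6% of all genes, among the lower BMF at -0.57 (SE 0.079, edgeR adjusted p = 3.75e-05). At 24 h 1 was higher and 2 were lower with AML874 (median -0.057), against 23.1% and 23.7% of all genes. The 2 lower were BID at -0.17 and BMF at -0.41 (edgeR adjusted p = 2.06e-06 and 0.000526). With SEL120-34A at 24 h 2 were higher and 1 lower (median -0.019), against 19.1% and 18.6%. There BCL2L11, the gene of BIM, was at 0.15 (SE 0.033, edgeR adjusted p = 0.000434) and BBC3, the gene of PUMA, at 0.35 (SE 0.091, edgeR adjusted p = 0.00518). BCL2L11 had been at -0.13 with SEL120-34A at 8 h (SE 0.034, edgeR adjusted p = 0.00144). Between the compounds at 24 h 4 of the 6 were lower with AML874 and 0 higher, against 11.6% and 8.0% of all genes.

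Of 6 less-studied relatives 3 were tested (BOK, BCL2L10 and BCL2L14 were not). BCL2L13, a mitochondrial family member, was called in all 4 comparisons with DMSO: 0.11 with AML874 at 8 h and -0.23 with SEL120-34A, then 0.17 and 0.11 at 24 h (SE 0.027 each, edgeR adjusted p = 0.00136, 9.39e-09, 2.83e-06 and 0.00147). BCL2L12 was called in 3, at 0.13 with AML874 at 8 h and 0.23 with SEL120-34A and 0.13 with SEL120-34A at 24 h. Downstream of the pore, 17 genes of release factors, apoptosome and caspases were all tested. With AML874 3 were higher and 8 lower at 8 h (median -0.087), against 19.7% and 19.9% of all genes, and 3 higher and 6 lower at 24 h (median 0.0033), against 23.1% and 23.7%. With SEL120-34A the counts were 3 and 3 at 8 h (median -0.032), against 22.4% and 22.6%, and 2 and 3 at 24 h (median 0.014), against 19.1% and 18.6%.

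Among these, CASP6, an executioner caspase, was at -0.54 with AML874 at 8 h and -0.26 with SEL120-34A (edgeR adjusted p = 2.48e-11 and 3.36e-05), and CASP9, the initiator caspase of the apoptosome, at -0.43 with AML874 (edgeR adjusted p = 7.03e-08). DFFA, the inhibitor of the caspase-activated nuclease, was at 0.29 with AML874 at 8 h and 0.14 at 24 h (edgeR adjusted p = 7.81e-11 and 5.28e-05). AIFM1, a flavoprotein of the space between the mitochondrial membranes, was at -0.32 with SEL120-34A at 8 h and 0.24 at 24 h (edgeR adjusted p = 8.64e-12 and 7.08e-09), and at 0.27 with AML874 at 24 h. CYCS, the gene of cytochrome c, was at -0.14 with each compound at 24 h (edgeR adjusted p = 5.64e-05 with AML874 and 0.000129 with SEL120-34A). The inhibitor of apoptosis genes, which restrain caspases, had 7 of 8 tested. Of these 1 was higher and 1 lower in each comparison with DMSO except AML874 at 24 h, where 1 was higher and 3 lower. The shares of all genes called in either direction were 39.6% and 45.1% at 8 h and 46.8% and 37.7% at 24 h (AML874, then SEL120-34A). BIRC5, the gene of survivin, was the higher one each time, at 0.24 and 0.25 at 8 h and 0.14 and 0.19 at 24 h, and BIRC6, a large ubiquitin ligase, was lower each time, at -0.13 and -0.30 at 8 h and -0.16 and -0.11 at 24 h (AML874, then SEL120-34A). XIAP, the direct inhibitor of caspases, was at -0.14 with AML874 at 24 h (SE 0.034, edgeR adjusted p = 0.000997).

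For the turnover of the MCL1 protein 6 of 7 listed genes were tested. FBXW7, a substrate receptor that marks MCL1 for destruction, was at 0.17 with AML874 at 8 h and 0.20 with SEL120-34A (edgeR adjusted p = 8.97e-05 and 1.05e-05). With SEL120-34A at 8 h 2 were higher and 3 lower, among the latter the ligase HUWE1 at -0.17 (edgeR adjusted p = 8.16e-06) and USP9X, which removes ubiquitin from MCL1, at -0.13 (edgeR adjusted p = 0.000732). In each other comparison with DMSO 1 of the 6 was called. The shares of all genes called either way were 45.1% with SEL120-34A at 8 h, and 39.6% (AML874, 8 h), 46.8% (AML874, 24 h) and 37.7% (SEL120-34A, 24 h) in the others. Of 11 genes of mitochondrial shape and cristae, all tested, CLPB, a chaperone of the intermembrane space, was at -0.32 with AML874 at 24 h and -0.20 with SEL120-34A (edgeR adjusted p = 2.90e-11 and 9.28e-07). OMA1, the protease that cleaves OPA1, was at -0.26 and -0.52 at 8 h and at 0.22 and 0.13 at 24 h with AML874 and SEL120-34A (edgeR adjusted p = 2.74e-06, 2.17e-12, 1.64e-05 and 0.012). DNM1L, the fission GTPase, was lower in all 4 comparisons, from -0.16 to -0.11. Over the 11 genes 2 were higher and 3 lower with AML874 at 8 h, 2 and 4 with SEL120-34A at 8 h, 3 and 4 with AML874 at 24 h and 1 and 4 with SEL120-34A at 24 h. That is 5, 6, 7 and 5 of 11 called, against 39.6%, 45.1%, 46.8% and 37.7% of all genes.

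**Figure D5:**
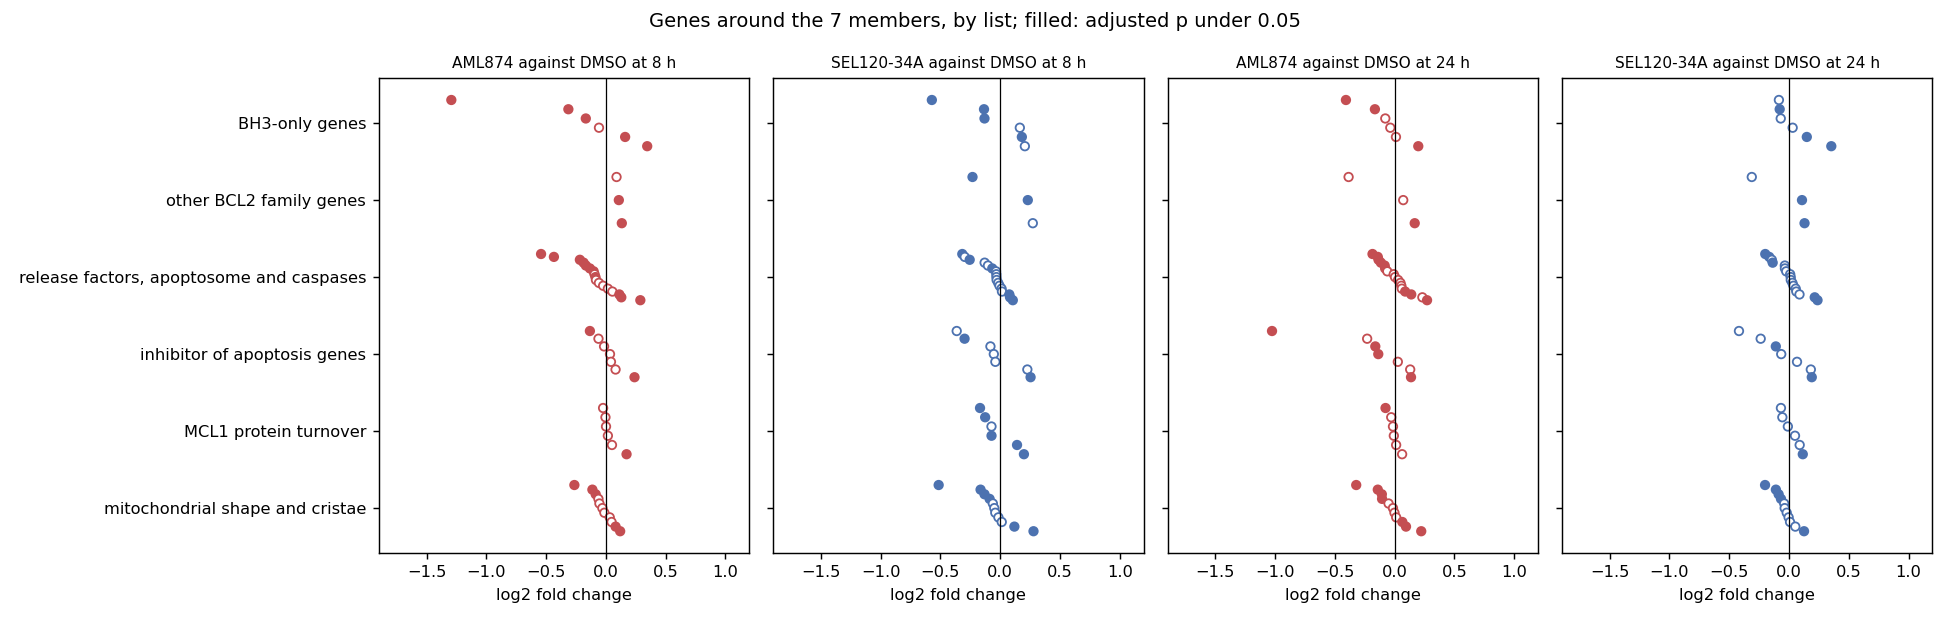
Log2 fold change of each tested gene of the 6 lists around the members, 1 panel per comparison with DMSO, points filled where the edgeR adjusted p is under 0.05. BMF is the point farthest left in the row of BH3-only genes with AML874 at 8 h (-1.29), and the lists hold points on both sides of 0 in most comparisons.

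The protein-coding genes most like each member were found by Pearson correlation of log2 CPM over the 18 libraries, among genes of at least 5 CPM, as a description. The libraries share their groups, so the correlation holds the differences between the 6 groups. For BCL2 they were FOXP2, AFF1 and MED13L (r = 0.99 each), and for MCL1 LRRC4, CD93 and STK4 (r = 0.98 each). For BCL2L1 they were C2CD2L, RABGGTA and SPCS3 (r = 0.97 each), for BAX TRAF4, TARDBP and PSMC3 (r = 0.98 each), and for BAK1 CBR1, SSNA1 and NOP10 (r = 0.98, 0.97 and 0.97). For BCL2L2 they were GOLGA8B, GOLGA8A and DMTF1 (r = 0.88, 0.87 and 0.86). The likeness of BCL2 to MED13L, a gene of the Mediator kinase module, came with log2 fold changes of MED13L of 0.56 with AML874 at 24 h and 0.47 with SEL120-34A and of 0.49 between 24 h and 8 h in DMSO. For the sparse counts of BCL2A1 no likeness is read.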

How the data were processed

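The labels describe TRIzol and column extraction and poly(A) selection. Per the submitters' processing notes, STAR 2.7.1a and RSEM 1.3.2 were used with GRCh38; the annotation release is not given in the sources used here. The authors deposited whole-number counts per gene in 3 strand columns, of which the reverse column (column 4) was used, since forward counts were 6.27% to 6.66% of it. The 4 summary lines, 21.9% to 25.5% of the column total (gene counts plus summary lines), were left out. They also deposited RSEM expected counts (estimated counts, rounded in an alternative), effective lengths (in bases) and TPM, used for levels between genes. Positions are from GENCODE 29 and upstream sequences from RefSeq; 5 of 7 members had an entry there.

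The main test was the quasi-likelihood test of edgeR 4.0.16 (TMM, filterByExpr, 6 groups, 18 libraries, Benjamini-Hochberg adjustment over 20920 genes, threshold 0.05). Members, lists and tests were chosen with earlier results of these data known. Members were named in every comparison, list genes by up to 4 smallest p-values past the threshold per comparison with DMSO, and likeness by the 3 highest correlations. Alternatives used DESeq2 1.42.0, limma-voom 3.58.1, other scaling, filters, strand and models, and each library left out. In simulated AML874 against DMSO libraries at 24 h (20510 genes) the test recovered 66% of changes of 1.15-fold, 86% of 1.25-fold, 98% of 1.5-fold and 100.0% of 2-fold, with 12 false calls. Changes were planted in 50 genes per fold, all with a mean of at least 1 CPM, so these rates do not cover BCL2A1. Far fewer genes changed there than in the real comparison, where 46.8% were called. Replicate numbers come from the labels, which do not say what they share. Same-numbered libraries deviated together for DMSO and AML874 at 24 h (r = 0.37, 0.18 and 0.24). They also did for SEL120-34A at 8 h and 24 h (r = 0.26, 0.50 and 0.16). The main test paired no libraries, and a fit with the number as a block was run as an alternative for every comparison.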

Additional observations from a re-analysis of the deposited data

Results flagged for a closer look

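The difference between the 24 h and the 8 h effect of a compound passed the interaction test for 5 results, given as log2 values (effect at 24 h minus effect at 8 h). With AML874 these were MCL1 at -0.11, BCL2L1 at -0.20 and BCL2 at 0.11, and with SEL120-34A they were BCL2 at 0.22 and BCL2L1 at -0.29. The BCL2 result with AML874 passed in only 10 of 25 settings, the main fit included. Each pair of times has its own DMSO libraries. In those, HIF targets had a mean log2 CPM of 4.66 to 5.43 at 8 h and 5.49 to 5.77 at 24 h; without the library of highest HIF mean in each group, an alternative chosen after seeing the data, BCL2L1 with AML874 was at -0.096 (adjusted p = 0.267) and BCL2 with AML874 at 0.085 (adjusted p = 0.073). The SEL120-34A results kept their calls there. BCL2L2 with SEL120-34A, not called in the main test, was at -0.70 in that alternative and passed (edgeR adjusted p = 0.0307).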

How the results depend on the processing

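Over 1207 recomputed member values, 1101 kept their direction and their side of the threshold, 43 lost a call, 15 gained one and 48 changed sign. Every change of sign was in a member that was not called. The number of members called was 2 in place of 4 for AML874 at 8 h with library totals alone, which also gave 4 in place of 2 for the SEL120-34A difference between times. Leaving out a library, the lowest and highest counts were 2 and 4 for SEL120-34A at 8 h, 1 and 3 between the compounds at 8 h, and 0 and 3 for the AML874 difference between times, which was 1 without the libraries of highest HIF mean. Library totals alone moved the share of higher genes among all calls from 49.8% to 63.5% for AML874 at 8 h, from 49.8% to 66.5% for SEL120-34A at 8 h and from 46.7% to 57.1% for DMSO over time; for the differences between times it moved from 47.1% to 30.7% with AML874 and from 52.2% to 29.1% with SEL120-34A. TPM recomputed from counts per effective length gave means of 85.9 for BCL2, 167 for MCL1, 27.0 for BCL2L1 and 229 for BAX. With fixed lengths, chosen after seeing the data, the log2 change of BCL2 over BCL2A1 with AML874 at 24 h was 0.24 in place of 0.79, and that of the pore formers over the anti-apoptotic genes at 8 h was 0.019 with AML874 and 0.0015 with SEL120-34A.

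Changes of sign were as follows, in log2 units. Without the libraries of highest HIF mean, BCL2L2 was at 0.057 (AML874, 8 h), 0.17 (SEL120-34A, 8 h) and -0.30 (AML874, difference between times), BAK1 at -0.025 (AML874, 8 h), BCL2A1 at -0.15 (AML874, 24 h) and BAX at -0.013 (between compounds, 8 h). With RSEM counts BCL2A1 was at -0.47 (AML874, 24 h) and 0.071 (DMSO over time), and BCL2L2 between compounds at 8 h at 0.034, with unstranded counts at 0.032. With library totals alone BAX was at -0.019 (between compounds, 8 h) and -0.048 (SEL120-34A, difference between times), MCL1 at 0.014 and BCL2A1 at 0.028 (both DMSO over time). BAX between compounds at 8 h was at -0.0016 with median-of-ratios size factors, -0.0018 with DESeq2, -0.0031 without a filter, -0.0062 with a 1 CPM filter and -0.00053 with the compared groups alone; BCL2A1 over time was at 0.0017 with median-of-ratios factors and BCL2 between compounds at 24 h at 0.00012 with the 1 CPM filter.

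Leaving out each library in turn, the lowest and highest values of those members whose sign changed were -0.33 and 0.053 (BCL2L2), and -0.031 and 0.046 (BAK1) for AML874 at 8 h; -0.0039 and 0.024 (BCL2), -0.30 and 0.090 (BCL2L2), and -0.36 and 0.036 (BCL2A1) for SEL120-34A at 8 h; -0.17 and 0.11 (BCL2L2), and -0.35 and 0.29 (BCL2A1) for AML874 at 24 h; and -0.0032 and 0.062 (BAK1) for SEL120-34A at 24 h. Between the compounds they were -0.13 and 0.066 (BCL2L2) and -0.011 and 0.0046 (BAX) at 8 h, and -0.044 and 0.011 (BCL2) at 24 h. For DMSO over time they were -0.040 and 0.00087 (MCL1) and -0.21 and 0.15 (BCL2A1), and for the AML874 difference between times -0.13 and 0.27 (BCL2L2).

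With the replicate number as a block, the number of members called was 2 in place of 3 for the AML874 difference between times (BCL2 at 0.11, adjusted p = 0.0556) and unchanged in the other 8 comparisons. Correlations of deviations between same-numbered libraries ran from -0.54 to 0.50, 10 of 45 pairs were above 0.1, and 5 of 18 libraries correlated best with their own number. All 3 pairs were above 0.1 for DMSO with AML874 at 24 h and for SEL120-34A at 8 h with 24 h. For AML874 against DMSO at 24 h the block left 4 members called, as without it. In the main test the numbers were not treated as pairing the libraries of any groups. BCL2A1 gave no value under the 1 CPM filter, and 2 values had no adjusted p in DESeq2. Counts per library were low for BCL2A1 (9 to 34) and BCL2L2 (100 to 249), and 2507 or more for the other 5 members. How much of the error of each member is counting noise and how much is spread between libraries was not tested.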

Other observations

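BCL2L2 had more reads on the strand opposite to the gene than on its own in every library, with 215 to 423 forward-column counts beside 100 to 249 reverse-column counts. PPP1R3E, which shares 206 exon bases with it on that strand, had a mean of 2085 counts in the reverse column. The unstranded column held 111 to 266 counts of BCL2L2.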
